A study of Mus musculus with 49 samples.

Results

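The comparison described here was between rNLS8 mice immunized with TDP-43 peptides 10 and 12 (TDP-10+12, 10 mice) and rNLS8 mice given PBS in place of the peptide conjugates (TDP-PBS, 10 mice). These were 20 of the 49 mice of the series, picked by the group in their labels alone. All 20 were bigenic for NEFH-tTA and tetO-hTDP43ΔNLS on a mixed C57BL/6J and C3H/HeJ background. The transactivator is driven by the neurofilament heavy chain promoter, so that human TDP-43 without a working nuclear localization signal is made in neurons once doxycycline is withdrawn. The transgene was switched on at 25.5 weeks and the neocortex was taken at 28.5 weeks, 3 weeks into its expression. Immunization started at 8 weeks with 40 µg of ovalbumin-conjugated peptide, CpG oligonucleotide and an aluminium adjuvant, with 5 monthly doses before induction and 1 after it. The study's methods name the peptide conjugates as what PBS replaced and do not say whether the PBS mice received the adjuvants. If they did not, peptide and adjuvant cannot be told apart in this comparison. The TDP-10+12 group held 6 females and 4 males and the TDP-PBS group 4 females and 6 males. For reference, 17 ctrl-PBS mice carried only tetO-hTDP43ΔNLS and received PBS, and 12 TDP-15 mice were bigenic and received a different TDP-43 peptide.

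TDP-43, encoded by Tardbp, is a nuclear RNA-binding protein that moves to the cytoplasm and aggregates in most amyotrophic lateral sclerosis and in many cases of frontotemporal dementia. Peptides 10 and 12 come from its glycine-rich C-terminal domain, the part that drives its condensation and aggregation. Active immunization raises antibodies in blood, of which a small part crosses into brain. There, antibody bound to its antigen can be taken up by microglia through Fc receptors and can engage complement. Neurons that express cytoplasmic TDP-43 in this model lose axons, and the surrounding glia turn on inflammatory, complement and interferon genes.

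Bulk mRNA was sequenced in each mouse and counted per gene. Between 18970484 and 20579670 reads were assigned to genes in the TDP-10+12 mice and between 18346385 and 21033608 in the TDP-PBS mice. The mean totals were 19926313 ± 446653 and 19692742 ± 719557 (SD, n = 10 each), a difference of 233570 reads (two-sided permutation test, 100000 resamples, p = 0.398). Genes of neocortical excitatory neurons were abundant in every mouse of both groups, among them Slc17a7, the cortical vesicular glutamate transporter, at 1421 to 2144 CPM (counts scaled to an equal library size). Striatal, hippocampal and choroid plexus genes varied between mice and are given below. Of the 20 mice, 0 went against the labelled sex. In bulk tissue, fewer cells of a type and less RNA per cell cannot be told apart.

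No gene differed between TDP-10+12 and TDP-PBS at an adjusted p under 0.05 in edgeR's quasi-likelihood test (0 of 18220 genes tested, 0%). The smallest adjusted p was 0.380. At an unadjusted p under 0.05 there were 953 genes, 561 with a higher level in TDP-10+12 (3.08% of genes tested) and 392 with a lower level (2.15%). In no gene did all 10 mice of one group lie outside the range of the other (0%). The log2 fold change was below 0 in 51.3% of genes, with a median of -0.003. The same fit called 21.9% of genes higher and 21.6% lower in TDP-PBS than in ctrl-PBS mice. Limits on the size of a difference were close for most genes. The 95% confidence interval lay wholly within 1.5-fold in either direction for 14463 genes (79.4%) and within 2-fold for 17177 genes (94.3%). Among the 15535 genes with a mean of at least 1 CPM, 91.0% had an interval within 1.5-fold. The spread between mice was alike in both groups, with a median SD of log2 CPM of 0.205 in TDP-10+12 and 0.215 in TDP-PBS.

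**Figure D1:**
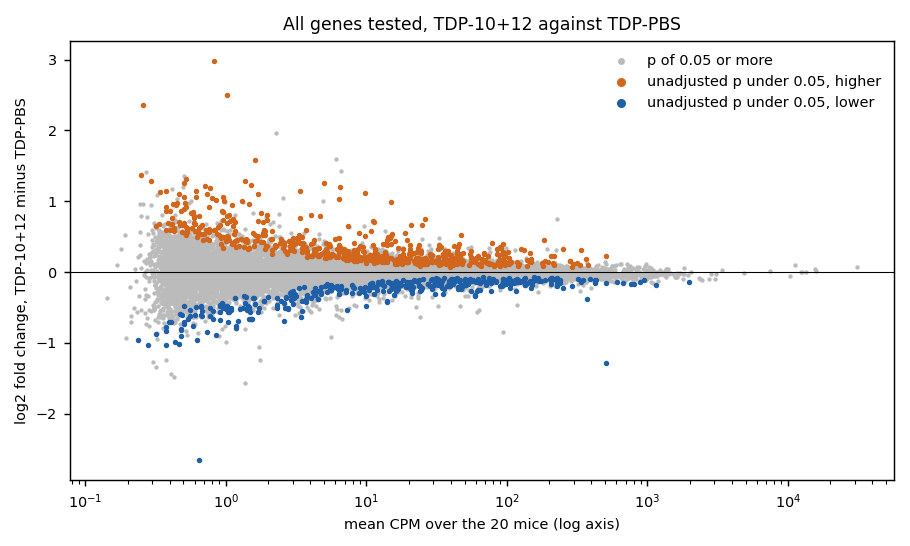
Log2 fold change of TDP-10+12 minus TDP-PBS (vertical axis) against the mean CPM over the 20 mice (horizontal log axis), 1 point for each of the 18220 genes tested. Coloured points are the 561 higher and 392 lower genes at an unadjusted p under 0.05, none of which had an adjusted p under 0.05, and the widest scatter is at low CPM.

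The gene with the smallest p was Wnt7b (chr15:85535437-85581821, GRCm38.p6), a secreted Wnt ligand known from brain vessel growth and dendrite formation. It ranged from 35.05 through a median of 46.1 to 60.2 CPM in TDP-10+12 and from 30.2 through 37.5 to 41.6 CPM in TDP-PBS. On the log2 scale the fold change was 0.37 (95% confidence interval 0.20 to 0.55, adjusted p = 0.380). Of the 10 immunized mice, 9 lay above every TDP-PBS mouse and 1 lay inside their range. The ctrl-PBS mean was 45.9 ± 6.28 CPM (SD, n = 17) and the TDP-15 mean 36.8 ± 5.97 CPM (SD, n = 12). Among 30 tested genes of the Wnt pathway, 18 had a positive and 12 a negative log2 fold change, with a median of 0.02. Of the 30, 3 were higher and 1 lower at an unadjusted p under 0.05, beside 3.08% and 2.15% of all genes. The 3 include Wnt7b, picked above for its p. At an unadjusted p under 0.05 were Wnt7b, Ctnnb1 (beta-catenin, the intracellular transducer, 187 ± 11.3 against 171 ± 12.8 CPM) and Fzd3 (a Wnt receptor, 51.2 ± 2.96 against 45.8 ± 6.90 CPM), and with a lower level Reck, a Wnt7 coreceptor gene (means of 14.7 against 16.3 CPM).

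Ppl (chr16:5086291-5132481), which encodes periplakin, a linker of intermediate filaments to cell junctions, spanned 1.29, 2.51 and 3.19 CPM (lowest, median and highest) in TDP-10+12 and 1.09, 1.36 and 2.43 CPM in TDP-PBS. This gave a log2 fold change of 0.73 (0.39 to 1.07, adjusted p = 0.380), with 6 immunized mice above every TDP-PBS mouse. Unlike Wnt7b, its mean was lower in ctrl-PBS mice (1.22 CPM) than in either group. Timp2 (chr11:118301061-118355411) encodes a tissue inhibitor of matrix metalloproteinases. Its levels were 323, 381 and 406 CPM in TDP-10+12 and 252, 297 and 409 CPM in TDP-PBS, so that the highest mouse of all was a TDP-PBS mouse, number 91. The log2 fold change was 0.31 (0.16 to 0.45, adjusted p = 0.380). Of the 21 tested genes for TIMPs, metalloproteinases and matrix, 9 had a positive and 12 a negative log2 fold change, and the median was -0.01.

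Sertm1, a gene for a small serine-rich membrane protein (chr3:54897068-54915887), stood at 12.8, 16.6 and 22.5 CPM in TDP-10+12 and at 7.17, 11.5 and 19.2 CPM in TDP-PBS (log2 fold change 0.48, 0.25 to 0.71). Mouse 91 was again the highest of its group. Without mouse 91 the edgeR test called 3 genes at an adjusted p under 0.05, namely AU023762, Sertm1 and Timp2, and limma-voom with sample quality weights called Sertm1 and Timp2. Sqle (chr15:59315092-59331193), squalene epoxidase of cholesterol synthesis, lay at 22.2, 27.1 and 33.8 CPM against 17.7, 22.4 and 27.1 CPM (log2 fold change 0.30, 0.16 to 0.45). For Sqle, 5 mice of TDP-10+12 lay above every TDP-PBS mouse.

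Among neuronal genes with a higher level in TDP-10+12 were the synapse organizer Cbln1, the somatostatin receptor Sstr2, neuronal nitric oxide synthase Nos1 and the plasma membrane calcium pump Atp2b4. Cbln1 (chr8:87468853-87472592) was at 7.91, 14.8 and 18.7 CPM in TDP-10+12 and at 4.91, 8.57 and 12.6 CPM in TDP-PBS (log2 fold change 0.71, 0.31 to 1.11, adjusted p = 0.710). In 8 immunized mice it exceeded every TDP-PBS mouse. Cbln1 also belongs to the thalamus, hindbrain and olfactory bulb list described below. Sstr2 was at 14.0, 17.3 and 27.7 CPM in TDP-10+12 and at 11.4, 13.6 and 16.3 CPM in TDP-PBS (0.44, 0.20 to 0.67), with 7 immunized mice above the TDP-PBS range. For Nos1 the values were 84.8, 100 and 118 CPM against 64.5, 75.5 and 106 CPM (0.35, 0.16 to 0.55). Atp2b4 had 196, 275 and 368 CPM against 180, 217 and 276 CPM (0.33, 0.14 to 0.51). These 4 genes overlapped between the groups, and none passed the test. Ptpre, a receptor-type tyrosine phosphatase, differed by 0.19 (42.6 ± 3.13 against 37.5 ± 2.83 CPM) and AU023762 by 0.72 (2.10 ± 0.594 against 1.27 ± 0.506 CPM). The largest fold change of the 12 genes, 1.26 for Fndc9, rested on male 301 of the TDP-10+12 group at 35.03 CPM beside a group median of 3.68 CPM. Without mouse 301 it was 0.42.

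Levels in TDP-10+12 were lowest relative to TDP-PBS, by p, for Phlda3 (chr1:135766085-135769134), a p53 target that restrains Akt. It was at 11.5, 13.4 and 16.7 CPM in TDP-10+12 and at 15.2, 17.6 and 20.1 CPM in TDP-PBS (log2 fold change -0.32, -0.49 to -0.16, adjusted p = 0.588). Here 8 immunized mice lay below every TDP-PBS mouse, while the ctrl-PBS mean was 11.8 ± 1.69 CPM. Cbln2, a relative of Cbln1, had the opposite sign to it. It was at 6.54, 8.12 and 10.5 CPM in TDP-10+12 and at 8.68, 10.9 and 15.3 CPM in TDP-PBS (-0.48, -0.76 to -0.20), with 7 immunized mice below the TDP-PBS range and a ctrl-PBS mean of 20.4 CPM. Bc1 (chr7:144914470-144914623), a short neuronal RNA whose sequence is shared with a rodent repeat family so that its reads are uncertain, had a log2 fold change of -1.28. Its median was 268 CPM in TDP-10+12 and 453 CPM in TDP-PBS, where mouse 82 reached 3227 CPM. Without mouse 82 the value was -0.58, and in males alone it was 0.12.

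Most of the other lower genes differed by less than Phlda3 did. Lzts3, a postsynaptic density protein gene, was at 212 ± 24.5 against 242 ± 14.9 CPM (log2 fold change -0.19), and the calcium-activated potassium channel gene Kcnn2 was at 31.7 ± 3.32 against 37.2 ± 5.23 CPM (-0.23). The cytokine gene Il17d differed by -0.27, Cdk2ap2 by -0.25, the deubiquitinase gene Mindy1 by -0.21, the beta-catenin antagonist gene Cby1 by -0.20 and the dynein cofactor gene Nudcd3 by -0.15. The larger differences were those of Mylk3 (-0.77) and Mslnl (-0.70), which had means near 1 CPM. All 9 overlapped between the groups.

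Side by side with the other groups, 10 of the 12 higher genes had a TDP-PBS mean below the ctrl-PBS mean, and 10 had a TDP-15 mean below it. Of the 12 lower genes, 7 had a TDP-PBS mean and 4 a TDP-15 mean above the ctrl-PBS mean. The TDP-PBS mice are shared by these comparisons and the genes were picked on their levels, so the counts are a description. Sstr2, for example, had means of 25.8 CPM in ctrl-PBS, 18.4 in TDP-10+12, 14.0 in TDP-15 and 13.6 in TDP-PBS. Ppl and Ptpre were the exceptions among the higher genes, with TDP-10+12 farther from ctrl-PBS than TDP-PBS was.

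**Figure D2:**
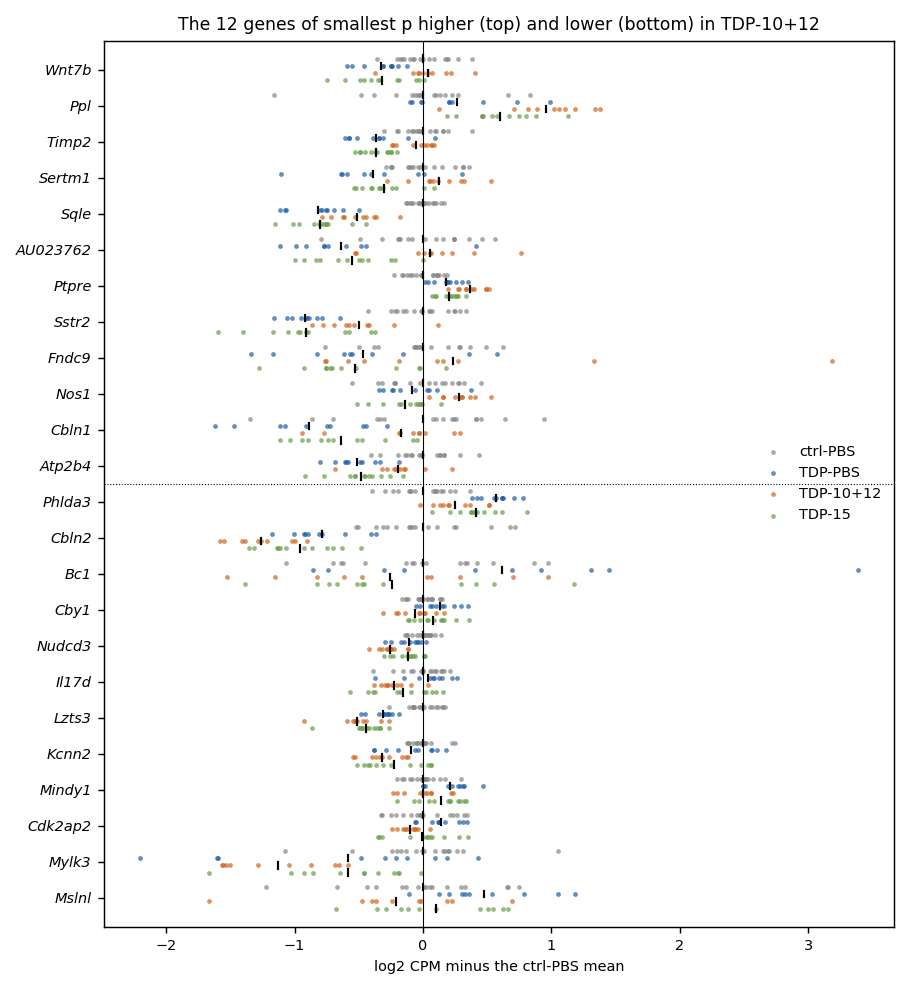
Log2 CPM minus the ctrl-PBS mean (horizontal axis) for the 12 genes of smallest p in each direction (rows), 1 point a mouse and a black bar at each group's mean. The top 12 rows show TDP-10+12 (orange) to the right of TDP-PBS (blue) and the bottom 12 to the left, with overlap in every row, mouse 301 far to the right for Fndc9 and mouse 82 for Bc1.

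Tardbp itself and the neurofilament genes differed little. Tardbp was at 106, 122 and 142 CPM in TDP-10+12 and at 91.9, 120 and 137 CPM in TDP-PBS (log2 fold change 0.06, -0.05 to 0.17, adjusted p = 0.975). Whether the mouse gene took up reads from the human transgene was not tested. Nefl, the light chain that is measured in blood as a sign of axon damage, was at 87.6, 122 and 146 CPM in TDP-10+12 and at 105, 126 and 138 CPM in TDP-PBS (-0.07, -0.20 to 0.05, adjusted p = 0.973). The ctrl-PBS mean was 250 ± 16.0 CPM, well above both groups. Nefm differed by -0.09 (-0.25 to 0.08) and Nefh, whose promoter drives the transactivator, by -0.06 (-0.23 to 0.11). Of the 5 intermediate filament genes, 4 had a negative sign, and Prph (peripherin) a positive one at 0.882 ± 0.462 against 0.555 ± 0.315 CPM. Among 17 transcripts linked to TDP-43, 12 were positive and 5 negative with a median of 0.01 and a range from -0.10 (Kif5a, a kinesin gene) to 0.08 (Nek1, a kinase gene).

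Interferon-stimulated genes had the lowest median of the gene lists, although none passed the test. All 29 tested members had a negative log2 fold change, with a median of -0.36 against -0.003 over all genes. At an unadjusted p under 0.05, 1 member was lower and 0 were higher, beside 2.15% and 3.08% of all genes. Values ran from -0.57 (Oasl2) to -0.15 (Cmpk2). These genes encode antiviral effectors induced downstream of the interferon receptor, and they tend to vary together, so the 29 signs are not 29 independent observations. In TDP-PBS mice all 29 were higher than in ctrl-PBS at an adjusted p under 0.05, beside 21.9% of all genes, with a median of 2.52. The medians against ctrl-PBS were 2.19 in TDP-10+12 and 2.81 in TDP-15, from the same ctrl-PBS mice.

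Promoter sequence is shown for 3 members because the list as a whole had 1 sign. The core of the interferon-stimulated response element was searched as GAAA, any 2 bases, GAAA on both strands, overlaps counted, in RefSeq windows from 250 bases before to 50 after a gene's start (GRCm38.p6). Windows were at hand for 20 of the 29 members, and 12 of these held the core (60%), against 487 of 13340 tested genes with a window (3.65%). Each line gives the matches, in capitals, with the bases around them, 5′ to 3′ on the strand of the gene, for Ifit1 (chr19:34640765-34640833, plus strand), Ifit3b (chr19:34607749-34607832, plus strand) and Bst2 (chr8:71537567-71537622, minus strand). A match describes letters and does not show binding.
Ifit1: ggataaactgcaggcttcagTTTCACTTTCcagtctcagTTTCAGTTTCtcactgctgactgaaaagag
Ifit3b: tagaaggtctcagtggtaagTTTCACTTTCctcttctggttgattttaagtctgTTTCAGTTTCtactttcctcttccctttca
Bst2: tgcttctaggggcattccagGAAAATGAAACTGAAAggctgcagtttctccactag

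Ifit1, an RNA-binding antiviral protein gene, was at 5.18, 16.9 and 34.9 CPM (lowest, median and highest) in TDP-10+12 and at 8.83, 24.9 and 60.5 CPM in TDP-PBS (log2 fold change -0.49, adjusted p = 0.954). Ifit3b had means of 20.5 and 26.4 CPM, and Bst2, which tethers enveloped virus to the cell surface, 9.05 and 11.9 CPM. Oasl2, of the oligoadenylate synthetase family, was at 12.6, 48.0 and 79.5 CPM in TDP-10+12 and at 21.4, 60.5 and 178 CPM in TDP-PBS (-0.57, -1.18 to 0.05). Isg15, a ubiquitin-like modifier gene, had means of 5.05 ± 2.41 and 7.23 ± 5.58 CPM. Its median was higher in TDP-10+12 (5.59 CPM) than in TDP-PBS (5.32 CPM), opposite to its mean. For each of these genes the ranges overlapped, and the lowest and highest mice of a group were wide apart.

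Single mice bore on the size of the difference. The list score, the mean over members of log2 CPM minus the ctrl-PBS mean, was 1.93 ± 0.517 in TDP-10+12 and 2.28 ± 0.536 in TDP-PBS (SD, n = 10 each), a gap smaller than 1 SD. Male 242 of TDP-10+12 was lowest at 0.75, male 251 of TDP-PBS was lowest of its group at 1.21 and male 217 of TDP-PBS highest of all at 3.26. The median fold change of the list was -0.23 without mouse 217, -0.27 without mouse 242 and -0.44 without mouse 251. It was -0.09 in females alone and -0.70 in males alone, and the score in females was 2.13 ± 0.283 (n = 6) against 2.27 ± 0.0661 (n = 4).

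**Figure D3:**
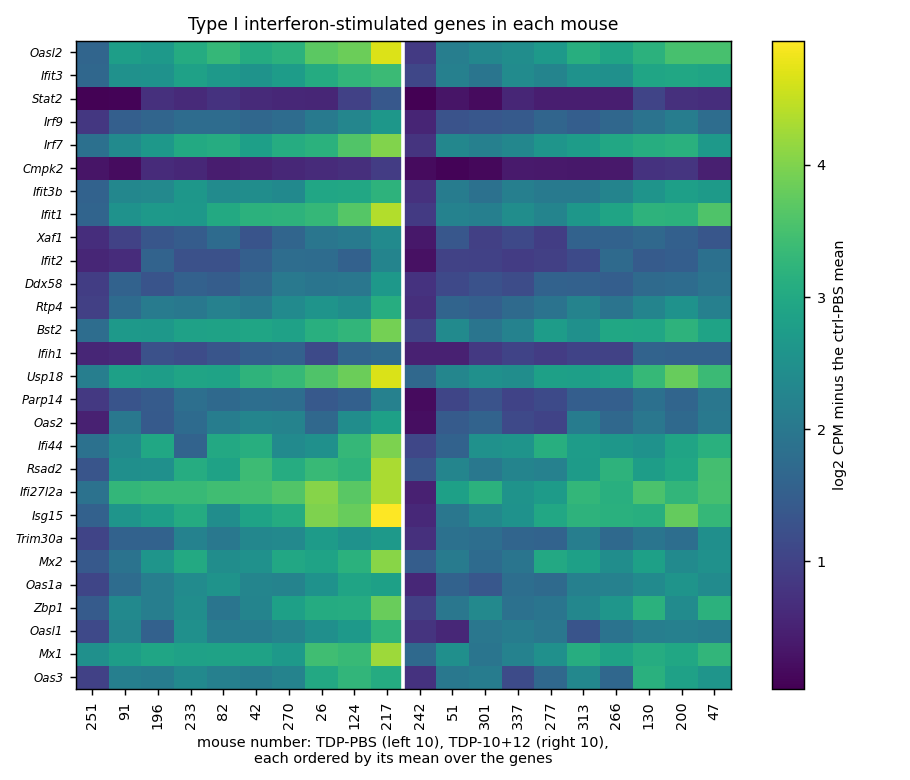
Log2 CPM minus the ctrl-PBS mean (colour scale) of 28 of the 29 interferon-stimulated genes (rows) in the 20 mice (columns), TDP-PBS and TDP-10+12 side by side. Genes vary together within a mouse, with mouse 217 high and mouse 251 low among TDP-PBS mice and mouse 242 low among TDP-10+12 mice.

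Other immune lists had smaller negative medians, some of which turned under an alternative. For interferon-gamma-induced GTPases, which attack vacuoles of intracellular microbes, 12 of 13 members were negative (median -0.14). That median was -0.04 without mouse 217 and 0.04 with the hippocampus list score, described below, as a covariate. Gbp3 was at 5.03, 10.5 and 18.3 CPM in TDP-10+12 and at 9.37, 13.7 and 25.0 CPM in TDP-PBS. For MHC class I presentation 13 of 15 were negative (median -0.13), led by the classical heavy chain genes H2-D1 and H2-K1. H2-D1 spread from 19.2 to 200 CPM in TDP-10+12 and from 18.5 to 255 CPM in TDP-PBS (-0.84, -1.92 to 0.23), and its reads may be split with near-identical class I genes. H2-K1 was at 17.8, 36.7 and 73.2 CPM against 18.7, 56.4 and 79.2 CPM (-0.48). For MHC class II presentation 10 of 12 were negative with a median of -0.07, which was 0.04 without mouse 82 of TDP-PBS and 0.17 with the hippocampus covariate.

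Of the 13 chemokines tested, 10 were negative with a median of -0.17. Cxcl10, an interferon-induced attractant of T cells, was at 1.66, 5.70 and 7.93 CPM in TDP-10+12 and at 2.41, 7.0 and 16.1 CPM in TDP-PBS (-0.48, -1.14 to 0.19). The difference between means, 5.09 ± 2.37 and 7.09 ± 3.74 CPM, was within 1 SD. Ccl2 differed by -0.19, Ccl3 by -0.27, Ccl4 by -0.17 and Ccl5 by -0.21, each with an interval that spans 0. The chemokine median was -0.05 without mouse 242 and -0.01 without mouse 217, and it was 0.02 among the members with at least 10 counts in every mouse. Tnf was listed at 0.762 ± 0.469 and 0.767 ± 0.669 CPM. The interleukin gene Il1b (44 and 53 reads in all 10 mice of TDP-10+12 and TDP-PBS) and Cxcl1 (26 and 25 reads) were too low to be tested. Among 16 tested cytokine, TNF and NF-kappaB genes the median was -0.02.

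Sensors of the adjuvant's ligand and the antibody pathway were examined as well. Of 18 Toll-like receptor and CpG sensing genes, 16 were negative (median -0.18). Tlr9, the receptor for CpG DNA, was at 1.83, 2.51 and 3.14 CPM in TDP-10+12 and at 1.45, 3.02 and 4.29 CPM in TDP-PBS (-0.29, -0.63 to 0.05). Of 12 tested Fc receptor and Fc signalling genes, 11 were negative (median -0.16). At an unadjusted p under 0.05, 0 were higher and 0 lower, beside 3.08% and 2.15% of all genes. Inpp5d, a phosphatase that restrains Fc receptor signalling, was at 17.5 ± 2.60 against 20.0 ± 2.82 CPM. Complement had 14 of 18 negative members (median -0.11). C1ra, a protease of the classical pathway, was at 2.86, 6.05 and 8.47 CPM in TDP-10+12 and at 4.94, 8.38 and 14.3 CPM in TDP-PBS (-0.53, -0.97 to -0.10, adjusted p = 0.926). C4b, the component that C1s cleaves, was at 158, 320 and 494 CPM against 241, 410 and 586 CPM (-0.38, -0.74 to -0.02, adjusted p = 0.934). C4b differed by -0.74 in females alone and by -0.06 in males alone. Without mouse 242 the medians were -0.11 for the sensing genes, -0.10 for the Fc genes and -0.06 for complement.

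Microglial genes were mostly negative in sign, by small amounts. The microglia and macrophage identity list had 11 of 12 negative members (median -0.12), the disease-associated list 16 of 19 (median -0.10) and the homeostatic list 11 of 15 (median -0.08). Aif1, which encodes the microglial protein Iba1, was at 10.3, 13.1 and 15.7 CPM in TDP-10+12 and at 9.92, 14.9 and 20.2 CPM in TDP-PBS (-0.19, -0.47 to 0.09). Tmem119, a marker of resident microglia, was at 12.8, 19.2 and 23.1 CPM against 17.0, 21.5 and 27.6 CPM (-0.22, -0.41 to -0.03, adjusted p = 0.926). Cst7, a marker of activated microglia, was at 2.74 ± 1.61 against 3.39 ± 1.90 CPM. C1qc and Laptm5, among the most abundant members, were at 52.5 ± 12.5 against 61.0 ± 14.2 CPM and at 130 ± 21.1 against 142 ± 20.2 CPM. Mouse 242 was the lowest of all 20 mice in 7 of the 10 immune and microglial scores compared, and mouse 251 of TDP-PBS in the other 3. Outside these 10, mouse 242 was also lowest for the homeostatic microglia, cytokine, MHC class II and B and plasma cell scores. The T and NK cell score was lowest in mouse 337 of TDP-10+12. Without mouse 242 the identity and disease-associated medians were both -0.06.

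Blood-derived immune cells left few reads in either group. Of 23 T and NK cell genes listed, 20 were matched in the table and only 3 were tested. The receptor chain gene Cd3e had 17 reads in all TDP-10+12 mice and 10 in all TDP-PBS mice. Cd8a had 23 and 18 reads and the interferon gamma gene Ifng 3 and 2. Of 23 B and plasma cell genes listed, 13 were matched in the table and 7 were tested, 3 positive and 4 negative. The level of genes without a match is not known. Cd79a, a B cell receptor component gene, was at 0.890 ± 0.282 against 1.13 ± 0.568 CPM (-0.34, -0.81 to 0.13). Ms4a1 (CD20) had 3 and 7 reads and was too low to be tested. Sdc1, which marks plasma cells but is made by other cells too, had a log2 fold change of 0.96 with mouse 301 at 8.12 CPM beside a group median of 1.23 CPM, and 0.33 without that mouse. Of 10 tested monocyte, neutrophil and dendritic cell genes 9 were negative, with a median of -0.21 that was -0.10 without mouse 242.

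Reactive astrocyte genes had a median near 0 with mouse 301 included and a negative one without it, while homeostatic astrocyte genes were balanced about 0 in both cases. Gfap, the intermediate filament of reactive astrocytes, was at 181, 299 and 1133 CPM in TDP-10+12 and at 220, 360 and 593 CPM in TDP-PBS. On the log2 scale the fold change was 0.00 (-0.41 to 0.42), and -0.35 without mouse 301, the mouse at 1133 CPM. It was -0.47 in females alone and 0.48 in males alone. Of 20 reactive astrocyte genes 10 were positive and 10 negative, with a median of -0.002 that was -0.17 without mouse 301. The metalloproteinase inhibitor gene Timp1 (1.01) and the sphingosine phosphate receptor gene S1pr3 (0.33) had an unadjusted p under 0.05, and without mouse 301 they stood at -0.38 and 0.01. The homeostatic astrocyte list had 7 positive and 8 negative members and a median between -0.02 and 0.03 whichever mouse was left out, with the serine transporter gene Slc7a10 at 28.3 ± 4.28 against 25.0 ± 2.96 CPM.

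In mature oligodendrocyte and myelin genes 13 of 15 were negative (median -0.09), and the sign differed between the sexes. The list median was -0.28 in females alone and 0.11 in males alone. Mbp, myelin basic protein, was at 1843, 2302 and 3440 CPM in TDP-10+12 and at 2146, 2470 and 3220 CPM in TDP-PBS (-0.11, -0.33 to 0.10). Precursor genes were balanced (6 positive and 7 negative of 13), with the growth factor receptor gene Pdgfra at 32.1 ± 3.05 against 28.8 ± 3.48 CPM. Of 16 endothelial and barrier genes 13 were negative at a median of -0.04, and pericyte genes were evenly split (6 and 6, median 0.01). Of 13 meningeal and fibroblast genes 10 were positive (median 0.16). The proteoglycan gene Dcn was at 15.1, 23.1 and 31.5 CPM in TDP-10+12 and at 8.54, 13.2 and 42.4 CPM in TDP-PBS, where the highest mouse was again number 91.

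**Figure D4:**
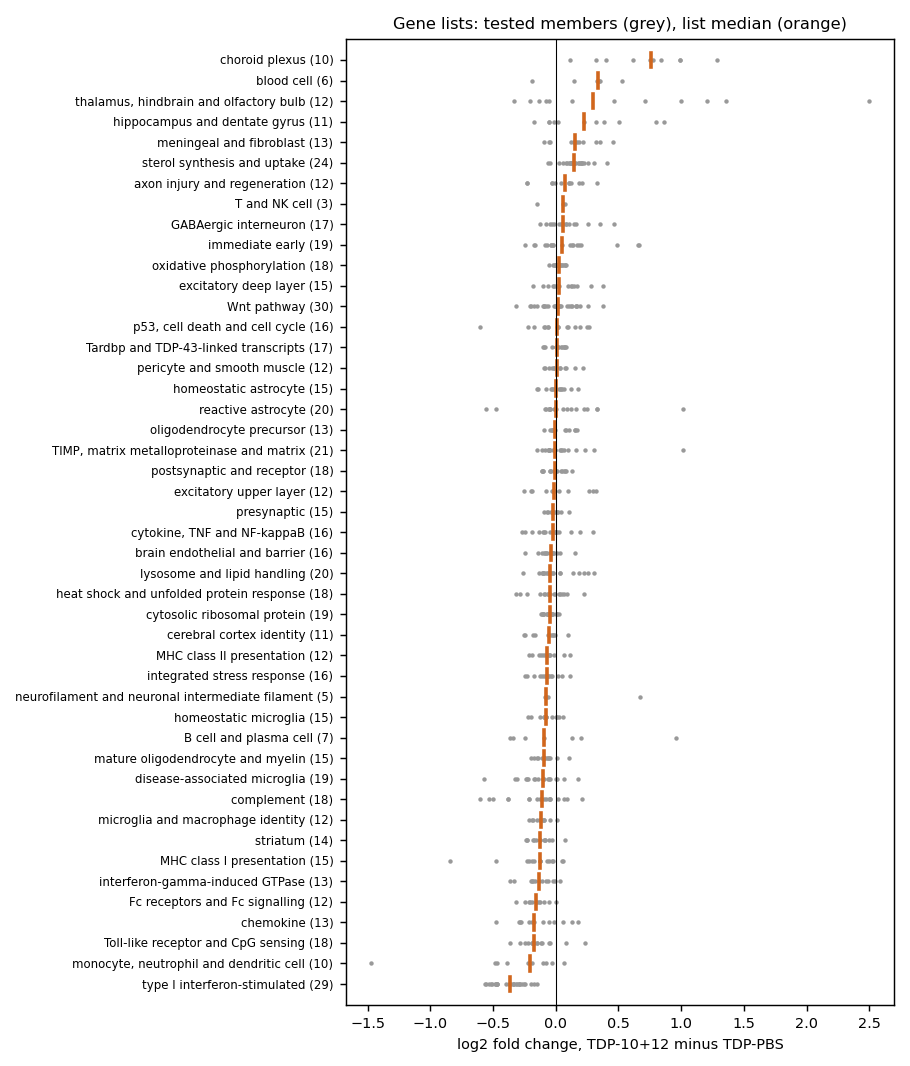
Log2 fold change of TDP-10+12 minus TDP-PBS (horizontal axis) for the tested members of each gene list (rows, number of members in brackets), 1 grey point a gene and an orange bar at the list median. Medians run from 0.76 for choroid plexus genes to -0.36 for interferon-stimulated genes, and most lists straddle 0.

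Genes that mark tissue beside or beneath the neocortex differed between mice, and some with the groups. All 10 choroid plexus genes were positive (median 0.76), through few mice. Ttr, the transport protein made by choroid plexus, had medians of 23.3 CPM in TDP-10+12 and 31.7 CPM in TDP-PBS, while mouse 51 of TDP-10+12 was at 1583 CPM and mouse 26 of TDP-PBS at 1221 CPM. Without mouse 51 the list median was -0.04. Haemoglobin and other blood genes had a median of 0.34 over 6 members, and -0.07 without mouse 130 of TDP-10+12. Striatal genes had 13 of 14 negative members (median -0.13), and 0.06 without mouse 217 of TDP-PBS. In the thalamus, hindbrain and olfactory bulb list 7 of 12 were positive (median 0.30), and the median was -0.10 in males alone. Its score differed by 0.44 in females and by -0.17 in males. Of the list's members 3 were higher and 0 lower at an unadjusted p under 0.05, beside 3.08% and 2.15% of all genes. Cbln1, named above, had the smallest p of the list. Slc6a5, the glycine transporter of hindbrain and spinal cord neurons, was too low to be tested, with 899 of the 1048 reads of the TDP-10+12 group in mouse 301 and 41 reads in all TDP-PBS mice.

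No hippocampus or dentate gyrus gene passed the test, although several had a small unadjusted p. Of 11 tested members 7 were positive, 6 of them at an unadjusted p under 0.05, beside 3.08% of all genes. The median was 0.23, and 0.10 without mouse 301. Cabp7, a calcium-binding protein gene, was at 18.5, 23.0 and 30.5 CPM in TDP-10+12 and at 10.3, 17.3 and 24.5 CPM in TDP-PBS (0.38, adjusted p = 0.710). C1ql2, a synaptic protein gene of mossy fibres, was at 2.49, 5.25 and 8.88 CPM against 1.27, 2.83 and 5.34 CPM (0.80), and Fibcd1 differed by 0.51. Prox1, the transcription factor that defines dentate granule cells, was at 19.9 and 19.6 CPM on average (0.02). In TDP-PBS mice 5 of the 11 were lower than in ctrl-PBS at an adjusted p under 0.05, beside 21.6% of all genes. No member was higher. The median against ctrl-PBS was -0.24 in TDP-PBS, -0.02 in TDP-10+12 and -0.22 in TDP-15, with ctrl-PBS mice shared. The list score was 0.0146 ± 0.135 in TDP-10+12 and -0.217 ± 0.119 in TDP-PBS, with 6 immunized mice above every TDP-PBS mouse. In TDP-15 it was -0.256 ± 0.132. Because the score differed between the groups, a fit with it as a covariate can also remove differences between them. With this score as a covariate, an alternative added after the data were seen, 544 genes had an unadjusted p under 0.05 in place of 953, 257 of them higher and 287 lower. Wnt7b then differed by 0.27, Timp2 by 0.18 and Sertm1 by 0.33. How much tissue beside the neocortex each sample held was not tested.

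Neuronal lists within the cortex had medians near 0. Of 11 cortex identity genes 10 were negative (median -0.05), 3 of them and no positive one at an unadjusted p under 0.05, beside 2.15% of all genes. That median was 0.01 with the hippocampus covariate. The transcription factor genes Tbr1 (142 ± 15.5 against 161 ± 21.5 CPM) and Neurod6 (58.5 ± 7.43 against 69.5 ± 11.1 CPM) differed by -0.18 and -0.25. Upper layer genes had a median of -0.02 and deep layer genes one of 0.02. The calcium buffer gene Calb1 was at 52.8 ± 7.44 against 44.0 ± 9.86 CPM and the deep layer neurotensin receptor gene Ntsr1 at 14.9 ± 1.96 against 12.3 ± 1.87 CPM. Of 17 interneuron genes 12 were positive (median 0.06). At an unadjusted p under 0.05 were 2 of them and no negative one, beside 3.08% of all genes. These were Nos1, already described for its small p, and Reln, the reelin gene, at 74.7 ± 7.23 against 62.5 ± 10.4 CPM. Presynaptic genes (median -0.02) and postsynaptic genes (median -0.01) differed by at most 0.13 on the log2 scale. Gria1, an AMPA receptor subunit gene, was at 328 ± 29.8 against 300 ± 20.5 CPM, while Grin1, the obligate NMDA receptor subunit gene, was at 914 ± 67.7 against 986 ± 112 CPM. Immediate early genes had a median of 0.05. Nptx2, an activity-induced synaptic pentraxin gene, was at 14.1, 21.3 and 73.4 CPM in TDP-10+12 and at 11.7, 16.9 and 35.8 CPM in TDP-PBS (0.66, and 0.42 without mouse 301).

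Sterol genes were nearly all positive in sign, and none passed the test. They were listed after Sqle had been seen among the smallest p-values, so their count is a description. Of 24 tested genes of sterol synthesis and uptake 22 were positive, with a median of 0.14 and 9 at an unadjusted p under 0.05, all higher, beside 3.08% of all genes. Dhcr7, which makes cholesterol from its last precursor, was at 30.3, 35.1 and 39.2 CPM against 25.4, 30.0 and 35.3 CPM (0.20, 0.08 to 0.31, adjusted p = 0.710). Hmgcs1 differed by 0.23, Fdps by 0.21 and Fdft1 by 0.20. In TDP-PBS mice 17 of the 24 were lower than in ctrl-PBS at an adjusted p under 0.05, beside 21.6% of all genes, and 0 were higher. The median against ctrl-PBS was -0.43 in TDP-PBS, -0.24 in TDP-10+12 and -0.41 in TDP-15, with ctrl-PBS mice shared. The list median stayed between 0.10 and 0.18 when any 1 mouse was left out.

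Stress and housekeeping lists were close to 0. The integrated stress response list had 13 of 16 negative members (median -0.07), with Ddit3, the gene for the CHOP transcription factor, at 15.2 ± 3.34 against 17.8 ± 2.68 CPM (-0.23, -0.44 to -0.02). It differed by 0.03 in females alone and by -0.56 in males alone. Heat shock and unfolded protein response genes had a median of -0.05, p53, cell death and cell cycle genes 0.01, lysosome and lipid genes -0.04, and axon injury genes 0.07. Oxidative phosphorylation genes (13 of 18 positive, median 0.03) and cytosolic ribosomal protein genes (15 of 19 negative, median -0.05) had opposite signs in the sexes, at 0.16 and 0.07 in females alone and at -0.08 and -0.15 in males alone.

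To place the immunized mice along the response to the transgene, genes were picked in the TDP-15 mice, which enter neither side of this comparison. Against ctrl-PBS, 370 genes (2.03%) were raised and 150 (0.823%) lowered in TDP-15 at an adjusted p under 0.05 and a log2 fold change beyond 1. The score of the raised genes was 1.27 ± 0.279 in TDP-10+12 and 1.43 ± 0.216 in TDP-PBS, a difference of -0.166 that was smaller than either SD. The TDP-10+12 mice ran from 0.621 through a median of 1.39 to 1.52 and the TDP-PBS mice from 1.01 through 1.46 to 1.69. Mouse 242, at the low end, lay below every TDP-PBS mouse, and without it the difference was -0.094. Of the 370 genes 289 (78.1%) had a negative log2 fold change between the 2 groups, beside 51.3% of all genes. The median over the 370 was -0.16. The genes were measured in the same mice, so their signs are not independent observations. The score of the lowered genes was -0.950 ± 0.0514 in TDP-10+12 and -1.0 ± 0.0765 in TDP-PBS, a difference of 0.0533. That was larger than the TDP-10+12 SD and smaller than the TDP-PBS SD, and 2 immunized mice lay above every TDP-PBS mouse. Of the 150 genes 84 were positive and 66 negative. Both groups stood far from the ctrl-PBS mean of 0 in both scores.

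**Figure D5:**
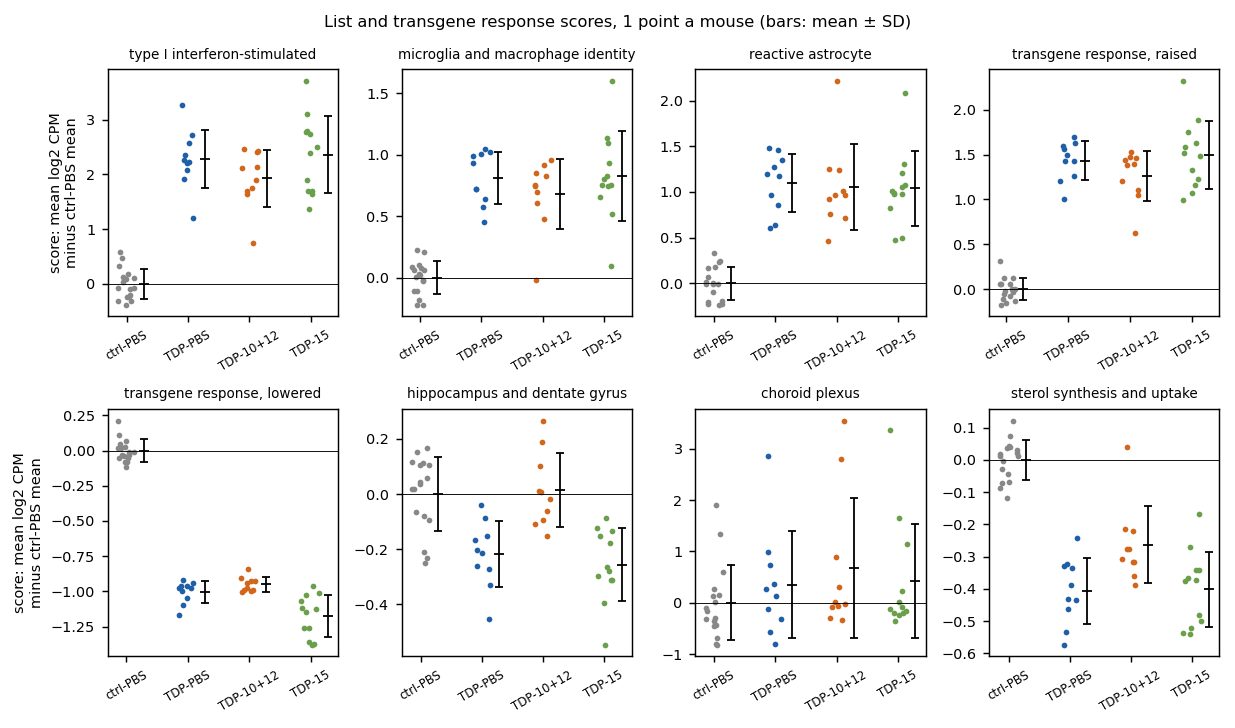
Scores (vertical axis, mean log2 CPM of the list minus the ctrl-PBS mean) of 8 gene lists in the 4 groups, 1 point a mouse, with bars at the mean ± SD. TDP-10+12 overlaps TDP-PBS in each panel, at 1.93 against 2.28 for interferon-stimulated genes and at 1.27 against 1.43 for the genes raised in TDP-15.

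Whether the difference depended on sex was tested directly, because the groups held unequal numbers of females and males. The immunization by sex interaction passed an adjusted p under 0.05 in 0 of 18357 genes, with 1216 genes at an unadjusted p under 0.05 and a smallest adjusted p of 0.740 in edgeR. In limma-voom the count was also 0, with 1181 genes at an unadjusted p under 0.05. With 4 to 6 mice of a sex in each group, the values given above for females or males alone are imprecise.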

How the data were processed

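Neocortex RNA of 49 mice was sequenced as 100 bp paired ends. The authors deposited raw read counts per gene symbol. Per the labels HISAT, HISAT2, Bowtie, Bowtie2 and RSEM were used on GRCm38.p6, so the counts may be rounded estimates, and whether strand was used is not given in the sources used here. All 45252 symbols matched RefSeq, which gave coordinates.

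Genes passing filterByExpr (minimum count 10, total 15) were fitted with edgeR 4.0.16 (TMM, quasi-likelihood, R 4.3.3) over all 4 groups, with the contrast TDP-10+12 minus TDP-PBS, two-sided, and Benjamini-Hochberg adjustment at 0.05. CPM use TMM-scaled library sizes, and scores a prior count of 2. Alternatives used DESeq2 1.42.0, limma 3.58.1, sva 3.50.0, other scalings and filters, each sex, and leaving out each of 20 mice. The edgeR and voom steps were tested on simulated data.

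Named were the 12 genes of smallest p in each direction with at least 1 CPM (Gm and Rik symbols left out), genes called under another setting, genes of interest in this model, and up to 3 members of a list by p with its most abundant ones. List extremes, other members of the interferon, class I and regional lists, and the sterol list were named after their values were seen. The comparison and the lists were chosen with earlier results of these data known. Some genes are not reported here. Mice are separate animals, and the labels give no batch or litter. Figures were drawn with matplotlib 3.10.9.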

Additional observations from a re-analysis of the deposited data

Results flagged for a closer look

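In each group of 10 mice the highest and the lowest value were examined for each named gene that is reported (log2 CPM), list score and library total, by the gap to the nearest mouse as a share of the group's range. Of 440 sets of values, 48 had a gap share above Dixon's 95% critical value, and chance gives about 1 in 20. No explanation was tested for any of them. For 1 mouse, genes and lists share reads and members, so its entries are not separate observations.

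Male 242 of TDP-10+12 was lowest by a wide gap for microglial and interferon genes. The gap shares were 0.635 for C1qc (22.4 CPM, a complement subunit made by microglia), 0.673 for Ifi27l2a (0.854 CPM, interferon-induced), 0.616 for Cd22, 0.526 for Csf1, 0.504 for Mslnl, 0.496 for Tyrobp and 0.474 for Laptm5. Among scores they were 0.543 for disease-associated microglia, 0.521 for interferon-stimulated genes, 0.507 for microglia and macrophage identity, 0.502 for B and plasma cells, 0.486 for complement and 0.478 for the genes raised in TDP-15.

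Male 301 of TDP-10+12 was highest for genes of reactive astrocytes, with gap shares of 0.736 for S1pr3 (35.7 CPM), 0.641 for Timp1 (11.5 CPM), 0.591 for Gfap (1133 CPM) and 0.554 for the reactive astrocyte score. It was also highest for Sdc1 (0.754), Jun (0.503) and Fndc9 (0.469). For sterol genes it was highest in Hmgcs1 (0.470) and the sterol score (0.598). It was lowest for Apoe (0.556), Lzts3 (0.506) and the upper layer score (0.474).

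In TDP-10+12, female 200 was lowest for the precursor gene Pdgfra (0.506) and the homeostatic astrocyte score (0.473), and highest for the ribosomal protein score (0.505). Mouse 51 was highest for Psat1 (0.528) and lowest for Cd163 (0.489), and mouse 277 was lowest for Mlkl, listed at 0 (0.539).

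In TDP-PBS, mouse 26 was highest for the choroid plexus genes Aqp1 (0.560), Kl (0.533) and Prlr (0.516) and the choroid plexus score (0.512), and for the ribosomal protein gene Rpl5 (0.606). It was lowest for the matrix gene Ncan (0.644). Mouse 91 was highest for Shmt2 (0.562), AU023762 (0.561), Hspa1b (0.507) and the heat shock (0.559) and integrated stress response (0.526) scores. Mouse 251 was lowest for Ifi27l2a (0.579), Tlr9 (0.469) and the MHC class I score (0.511). Single entries were Rpsa in mouse 42 (0.508), Neurod6 in mouse 217 (0.467) and Nefl in mouse 270 (0.467), each the lowest.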

How the results depend on the processing

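The count of genes at an adjusted p under 0.05 was 0 under 13 of the 15 alternatives other than leaving out a mouse, with counts at an unadjusted p under 0.05 from 507 to 1796. It was 1 with no filter on low counts (Slc6a5, through mouse 301) and 2 with limma-voom and sample quality weights. Leaving out each mouse gave 0 to 3, the 3 without TDP-PBS mouse 91. At an unadjusted p under 0.05 the higher and lower counts were 1411 and 1368 with no filter, 935 and 861 in females only, 259 and 248 in males only, 794 and 628 with sample quality weights, and 257 and 287 with the hippocampus list as a covariate, which was added after the data were seen. They ranged from 452 to 724 and from 308 to 588 when a mouse was left out. Scaling by library total gave 613 and 315 (66.1% higher, against 58.9%). The score of the genes raised in TDP-15 differed by -0.213 to -0.094 without 1 mouse each and that of the lowered genes by 0.035 to 0.062. With genes picked at an absolute log2 fold change over 0.5 in place of 1 the differences were -0.059 and 0.038, and with no minimum -0.031 and 0.022, against -0.166 and 0.053. The interaction count was 0 under each of its 3 alternatives. The study's methods state that littermates were randomized to the immunization groups. The labels give an animal number for each mouse and no litter, so litters could not be matched between the groups. Of 6087 values of named genes under the alternatives, 114 had the other sign, 1 of them among the 24 genes of smallest p (Bc1, males only). Those 24 were picked by p in the main fit of the same mice, so their signs were bound to change little. Of 1610 list medians 13 moved by more than 1 SD of the list score. The cause was not tested. Depth limits T and NK cell genes, of which 3 of the 20 in the table had enough reads to be tested.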
